A study of Drosophila melanogaster with 4 samples.

Results

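The genes described here are those of the mitochondrial genome of Drosophila melanogaster, taken as every row of the count table whose FlyBase identifier carries a symbol that begins with mt:. There were 37 such genes of 17510 in the table: 13 that encode proteins, 2 that encode ribosomal RNAs (rRNAs) and 22 that encode transfer RNAs (tRNAs). RNA came from dissected adult intestines from which the Malpighian tubules and crop had been removed. The 2 wild-type libraries were compared with 2 libraries of flies of a transgenic RNAi line held by NIG, the National Institute of Genetics, and directed against CG5789 (now Cftr), the fly homologue of CFTR, which in humans encodes a chloride channel of epithelia. The series was set up as a fly model of cystic fibrosis in the gut, and the comparison asks how gut RNA levels differ between the genotypes.

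The sources used here give neither the driver of the RNAi nor the age or sex of the flies, and the wild-type libraries carry no label of a driver or a control transgene. Knockdown, transgene and line background cannot be told apart. Libraries are numbered within a genotype in the order of deposit, and whether they are separate dissections is not labelled, which means that the p-values rest on a spread between libraries that may be technical. In bulk tissue, fewer cells of a type and less RNA per cell cannot be told apart.

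Mitochondrial DNA is a small circle, present in many copies per cell, that encodes a few core subunits of the respiratory chain and of ATP synthase, together with the rRNAs and tRNAs needed to translate them inside the organelle. It is transcribed from both strands into long precursors, and excision of the tRNAs that lie between the other genes releases most of the mature mRNAs and rRNAs. The remaining subunits of the same enzyme complexes, and the whole machinery of mitochondrial transcription and RNA processing, are encoded in the nucleus. Absorptive enterocytes and the visceral muscle around the gut both depend on these complexes for ATP.

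Wild type 1 and 2 had totals of 30537063 and 11294882 counts, and RNAi 1 and 2 had 30252763 and 23674485. The targeted gene Cftr had 13.8 and 43.4 CPM (counts relative to the library size after TMM scaling) in wild type 1 and 2 against 13.8 and 17.5 CPM in RNAi 1 and 2, so it was not lower in RNAi 1 than in wild type 1, and every direction below is for the libraries as labelled. Across the 9637 genes tested, log2 CPM was most alike between wild type 1 and RNAi 1 (r = 0.970 across genes, which are not independent replicates) and between wild type 2 and RNAi 2 (r = 0.970), against 0.961 within wild type and 0.956 within RNAi. These library pairs were read from the counts and are not in the labels. Summed markers of enterocytes took 5.87% and 5.785% of counts in wild type against 5.08% and 4.46% in RNAi, and none of the 8 was at 0. Of the 8, 2 were lower and 2 higher in RNAi within both pairs. The 13 visceral muscle markers, none of them at 0, took 0.180% and 0.324% in wild type against 0.145% and 0.235% in RNAi. Markers of Malpighian tubules, which had been removed, took 0.00555% to 0.00937%.

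No mitochondrial gene differed between the genotypes beyond the spread between libraries. Of the 37 genes, 36 had enough counts to be tested, all but mt:tRNA:Met-CAT. In edgeR's quasi-likelihood test with Benjamini-Hochberg adjustment over 9637 genes, 0 of the 36 were called higher and 0 lower at 0.05, where 0.125% of all genes were called (12 genes, 0.104% higher and 0.0208% lower). Each of the 36 had an adjusted p of 1.0. With no adjustment, 0 of the 36 had a p under 0.05, against 3.83% of all genes, and DESeq2 and limma-voom likewise called 0. The log2 fold change (positive where RNAi was higher) had a median of 0.084 over the 36 genes and of 0.0065 over all genes tested. It ranged from -0.12 to 0.53 over the 13 protein-coding genes, with standard errors of 0.37 to 0.62, and from -1.21 to 0.98 over the 21 tested tRNA genes, with standard errors of 0.41 to 1.62. Differences of the size of these standard errors were not detectable with 2 libraries per genotype.

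Mitochondrial genes together took 4.55% (95% Wilson interval 4.54 to 4.56) of the counts of wild type 1, 6.22% (6.21 to 6.23) of wild type 2, 6.07% (6.06 to 6.08) of RNAi 1 and 6.80% (6.79 to 6.81) of RNAi 2. Intervals here cover counting error only. Wild type 1 stood lowest, and wild type 2 lay between the RNAi libraries, so the genotypes overlapped. The means were 5.38% ± 1.18 (SD, n = 2) in wild type and 6.44% ± 0.520 (SD, n = 2) in RNAi, a difference of 1.05 percentage points, or 0.217 without wild type 1 and 1.89 without wild type 2, with an exact two-sided permutation p of 0.667, where 2 against 2 libraries cannot give less than 0.333.

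Split by class, the 13 protein-coding genes took 2.69% and 3.23% of counts in wild type 1 and 2, and 3.33% and 3.11% in RNAi 1 and 2. The rRNA genes took 1.85% and 2.98% in wild type and 2.74% and 3.69% in RNAi, so their share varied more between libraries than that of the mRNAs. Within mitochondrial counts the rRNA genes made up 40.7% and 47.9% in wild type and 45.1% and 54.3% in RNAi (exact permutation p = 0.667). All 22 tRNA genes together took 0.00436% and 0.00630% in wild type and 0.00790% and 0.00329% in RNAi. The lowest and the highest tRNA share were thus both RNAi libraries. For comparison, the annotated nuclear rRNA genes took 0.00433% to 0.00840% of counts, below the mitochondrial rRNA share in every library. The labels name no step of rRNA removal or poly(A) selection. How reads that match several genes were counted is not given either, so these shares do not compare amounts of rRNA.

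**Figure D1:**
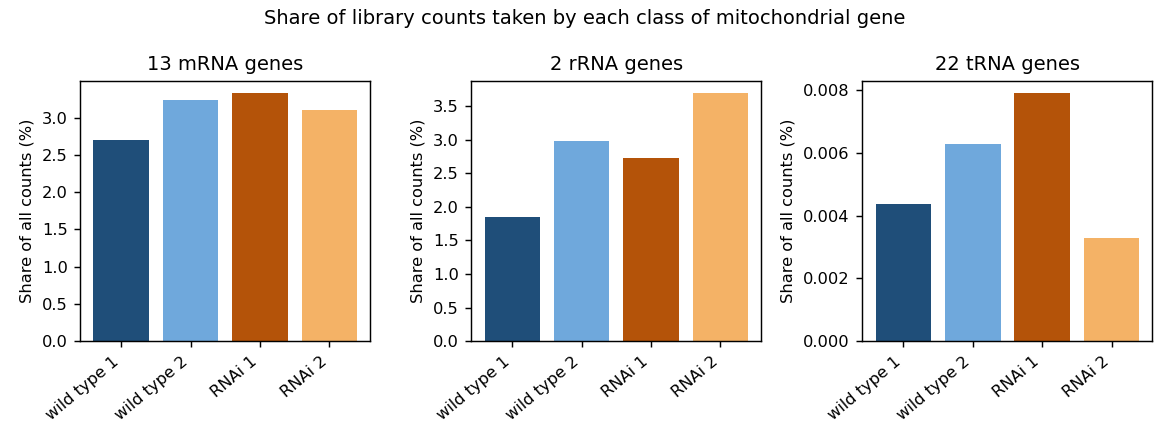
Share of all counts (%, linear axes from 0, a different scale in each panel) taken by the 13 protein-coding, 2 rRNA and 22 tRNA genes, with 1 bar per library and so no error bar. The rRNA share runs from 1.85% in wild type 1 to 3.69% in RNAi 2, while the tRNA share is highest in RNAi 1 (0.00790%) and lowest in RNAi 2 (0.00329%).

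The mRNAs differed widely from each other in level. On the scale of CPM per kilobase of annotated gene length, averaged over the 4 libraries, mt:ATPase6 was highest at 9762 and mt:ND2 lowest at 299, a 32.7-fold range among genes read from the same small genome. This scale gives reads per gene length and not numbers of transcripts. On it mt:ATPase6 was 8.50 to 18.7 times mt:ATPase8 in single libraries, though the genes are known to share an mRNA. The order over the 15 mRNA and rRNA genes was mt:lrRNA, mt:ATPase6, mt:CoIII, mt:Cyt-b, mt:CoII, mt:CoI, mt:ND4, mt:ND3, mt:ND5, mt:srRNA, mt:ATPase8, mt:ND1, mt:ND6, mt:ND4L and mt:ND2. The first 3 and mt:CoI held the same rank in every library, while mt:Cyt-b and mt:CoII changed places between libraries. Genes from mt:ND4 downward overlapped their neighbours in level, and the largest shift of a gene from its mean rank was 4 places, for mt:srRNA in RNAi 2. The subunits of cytochrome c oxidase, cytochrome b and ATPase6 thus lay above every subunit of NADH dehydrogenase in all 4 libraries.

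**Figure D2:**
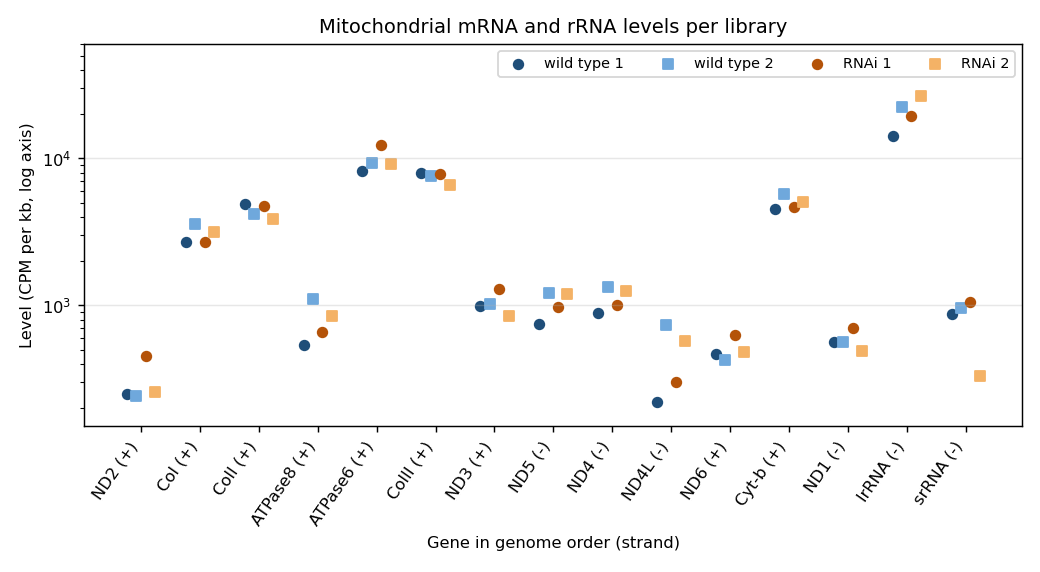
Level of the 15 mRNA and rRNA genes (CPM per kb, log axis) in genome order with the coding strand in brackets, 1 point per library. mt:lrRNA lies at 14247 to 26727 and mt:ND2 at 240 to 448, mt:srRNA is low only in RNAi 2 (331 against 874 to 1056 in the other 3 libraries), and mt:ND4L and mt:ATPase8 are higher in wild type 2 and RNAi 2 than in wild type 1 and RNAi 1.

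Genes of both strands were found high and low in level. Of the protein-coding genes, 9 lie on the plus strand of the annotated genome (BDGP6, sequence mitochondrion_genome) and 4 (mt:ND5, mt:ND4, mt:ND4L and mt:ND1) on the minus strand, as do both rRNAs. Plus-strand genes made up 89.3% and 86.0% of mitochondrial protein-coding counts in wild type and 88.4% and 85.4% in RNAi. The median level of the plus-strand protein-coding genes was 3020 CPM per kb and that of the minus-strand ones 805 CPM per kb, a difference that was not tested. These medians include the short genes mt:ATPase8 (162 bases) and mt:ND4L (291 bases), whose values may depend on how reads were assigned. It did not hold gene by gene: plus-strand mt:ND2, mt:ND6, mt:ATPase8 and mt:ND3 had lower mean levels than minus-strand mt:ND4 (1115 CPM per kb), and the highest gene, mt:lrRNA, lies on the minus strand. The median log2 fold change was -0.072 for the plus-strand and 0.057 for the minus-strand genes, which is a description over genes that share transcripts.

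The subunits of NADH dehydrogenase, complex I of the chain, which passes electrons from NADH to ubiquinone, included the only mitochondrial genes without overlap between the genotypes. mt:ND2 (240 to 1263, plus strand), a membrane-arm subunit, had 256 and 246 CPM in wild type 1 and 2 and 459 and 263 CPM in RNAi 1 and 2. RNAi 1 alone stood well above the others, and RNAi 2 exceeded wild type 1 by little. The log2 fold change was 0.53 (SE 0.43), and 0.069 without RNAi 1.

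mt:ND6 (9971 to 10495, plus strand), another membrane-arm subunit, had 244 and 222 CPM in wild type and 332 and 253 CPM in RNAi, and RNAi 1 was again highest. Its log2 fold change was 0.33 (SE 0.38). Both genes were higher in RNAi without overlap, 2 of the 36 tested or 5.56%, while 12% of all tested genes were higher in that way. None of the 36 was lower without overlap, against 12.2% of all genes.

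The other complex I genes overlapped. mt:ND1 (11721 to 12659, minus strand), which lies where the membrane arm meets the peripheral arm, had 529 and 527 CPM in wild type and 661 and 457 CPM in RNAi, so the RNAi libraries lay on either side of a tight wild-type pair. mt:ND3 (5608 to 5961, plus strand) had 348 and 362 CPM in wild type and 454 and 299 CPM in RNAi, the same arrangement. The log2 fold changes were 0.082 (SE 0.40) for mt:ND1 and 0.086 (SE 0.41) for mt:ND3.

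mt:ND5 (6409 to 8125, minus strand) and mt:ND4 (8207 to 9545, minus strand), both proton-pumping subunits of complex I, followed the library pairs instead. mt:ND5 had 1276 and 2079 CPM in wild type 1 and 2 and 1668 and 2062 CPM in RNAi 1 and 2. mt:ND4 had 1181 and 1770 CPM in wild type and 1335 and 1683 CPM in RNAi. Both were lowest in wild type 1 and highest in wild type 2, and their log2 fold changes were 0.15 (SE 0.42) and 0.032 (SE 0.41).

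mt:ND4L (9545 to 9835, minus strand), a small complex I subunit, overlaps mt:ND4 by 1 base, and the pair is known to be carried on a bicistronic mRNA. It had 63.9 and 212 CPM in wild type and 87.3 and 166 CPM in RNAi, a 3.32-fold range within wild type that was the widest of the mRNA genes. Per kilobase mt:ND4 was 4.02 and 1.81 times mt:ND4L in wild type 1 and 2 and 3.32 and 2.21 times in RNAi 1 and 2. The log2 fold change of mt:ND4L was -0.12 (SE 0.62), and it was 1.01 without wild type 2.

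The catalytic core of cytochrome c oxidase, complex IV, which reduces oxygen to water, was among the least variable of the mitochondrial genes. mt:CoI (1474 to 3009, plus strand) had 4164 and 5449 CPM in wild type and 4111 and 4831 CPM in RNAi. mt:CoII (3083 to 3767, plus strand), which takes up electrons from cytochrome c, had 3336 and 2886 CPM in wild type and 3262 and 2656 CPM in RNAi. mt:CoIII (4736 to 5524, plus strand), a structural core subunit, had 6288 and 5998 CPM in wild type and 6131 and 5226 CPM in RNAi.

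In each of these 3 genes the RNAi library was below the wild-type library of its pair, by little, and the genotypes overlapped. Their log2 fold changes were -0.10 (SE 0.38), -0.072 (SE 0.38) and -0.11 (SE 0.37). The highest level was 1.20 times the lowest for mt:CoIII, 1.26 times for mt:CoII and 1.33 times for mt:CoI. mt:Cyt-b (10499 to 11635, plus strand), the haem-bearing core of complex III, had 5162 and 6547 CPM in wild type and 5327 and 5772 CPM in RNAi, a log2 fold change of -0.077 (SE 0.37). Scaled by library size alone, which moved the median of all genes to 0.105, the log2 fold changes of mt:CoII and mt:Cyt-b became 0.027 and 0.017.

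Both ATP synthase genes encode subunits of its membrane-embedded part. mt:ATPase6 (4062 to 4736, plus strand) had 5532 and 6315 CPM in wild type and 8311 and 6198 CPM in RNAi, with RNAi 1 above the other 3 libraries. Its log2 fold change was 0.29 (SE 0.38). mt:ATPase8 (3907 to 4068, plus strand) had 87.4 and 178 CPM in wild type and 107 and 137 CPM in RNAi, with a log2 fold change of -0.12 (SE 0.46).

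mt:ATPase8 and mt:ATPase6 overlap by 7 bases and are known to be translated from a common mRNA, yet per kilobase mt:ATPase6 was 15.2 and 8.50 times mt:ATPase8 in wild type and 18.7 and 10.8 times in RNAi. How reads that cover both genes, or both mt:ND4 and mt:ND4L, were assigned is not given in the sources used here. The shorter gene of each pair was closer to its partner in wild type 2 and RNAi 2 than in wild type 1 and RNAi 1. Total counts were also lower in wild type 2 and RNAi 2. There mt:ND4L had 2365 and 4066 counts, against 1846 and 2724 in wild type 1 and RNAi 1. mt:ATPase8 had 1987 and 3363 counts against 2527 and 3332. The part of depth in these ratios was not tested.

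By complex, cytochrome c oxidase genes made up 48.4% and 43.7% of mitochondrial protein-coding counts in wild type and 41.9% and 42.4% in RNAi. ATP synthase genes made up 19.7% and 19.8% in wild type and 26.1% and 21.1% in RNAi. The genotypes did not overlap in either share (exact permutation p = 0.333 for each, the smallest value the design allows). Over the 40 summed measures computed, most of which overlapped between the genotypes, the adjusted p was 0.988. The ratio of mt:CoIII to mt:ATPase6 counts, neighbours in the genome, was 1.14 and 0.9498 in wild type and 0.738 and 0.843 in RNAi (exact permutation p = 0.333). The shares are parts of the same total and the ratio uses the same genes, so these measures are not independent. Complex I genes made up 13.7% and 16.5% against 15.5% and 17.3%, and mt:Cyt-b 18.1% and 19.97% against 16.5% and 19.2%, with overlap in both. With the mitochondrial total in place of the library size, edgeR again called 0 of the 36 genes.

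The ribosomal RNAs behaved differently from each other. mt:lrRNA (12735 to 14058, minus strand), the RNA of the large mitochondrial ribosomal subunit, had 18863 and 29452 CPM in wild type and 25695 and 35386 CPM in RNAi. It had the highest count of all genes in both RNAi libraries and ranked 5 and 3 in wild type 1 and 2. Its log2 fold change was 0.34 (SE 0.40), or 0.037 without wild type 1, and each RNAi library exceeded the wild-type library of its pair.

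mt:srRNA (14131 to 14916, minus strand), the RNA of the small subunit, had 687 and 752 CPM in wild type and 830 and 260 CPM in RNAi. RNAi 2 stood apart, and the other 3 libraries lay close together. The log2 fold change was -0.40 (SE 0.57), and without RNAi 2 it was 0.16. The count ratio of mt:lrRNA to mt:srRNA was 27.4 and 39.2 in wild type and 30.96 and 136 in RNAi. Per kilobase it was 16.3 and 23.2 in wild type and 18.4 and 80.7 in RNAi. Counts of the 2 rRNAs were thus uneven in every library and least even in RNAi 2. How evenly the libraries captured these RNAs was not tested.

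Within the library pairs the mitochondrial genes moved in opposite directions. In the pair of RNAi 1 and wild type 1, 32 of the 36 tested genes (88.9%) were higher in RNAi, where 49.4% of all genes were. In the pair of RNAi 2 and wild type 2, 29 of the 36 were lower in RNAi and 6 were higher, where 50.1% of all genes were higher. Both patterns together, higher in RNAi 1 and lower in RNAi 2, held for 26 of the 36 genes (72.2%) and for 18.9% of all genes.

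The median log2 ratio of the mitochondrial genes was 0.44 in the first pair and -0.24 in the other, while that of all genes was -0.0066 and 0.0014. Each side of a pair is 1 library, and the genes share transcripts, so these counts describe 4 libraries and were not tested. Over the 13 protein-coding genes 10 were higher in RNAi 1 and 11 were lower in RNAi 2, and over the 21 tested tRNA genes 20 were higher in RNAi 1 and 17 lower in RNAi 2. mt:ND2, mt:ND6, mt:lrRNA, mt:tRNA:Trp-TCA and mt:tRNA:His-GTG were higher in both pairs, 5 of 36 genes where 30.5% of all genes were. mt:CoI, mt:CoII and mt:CoIII were lower in both pairs, where 30.9% of all genes were.

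**Figure D3:**
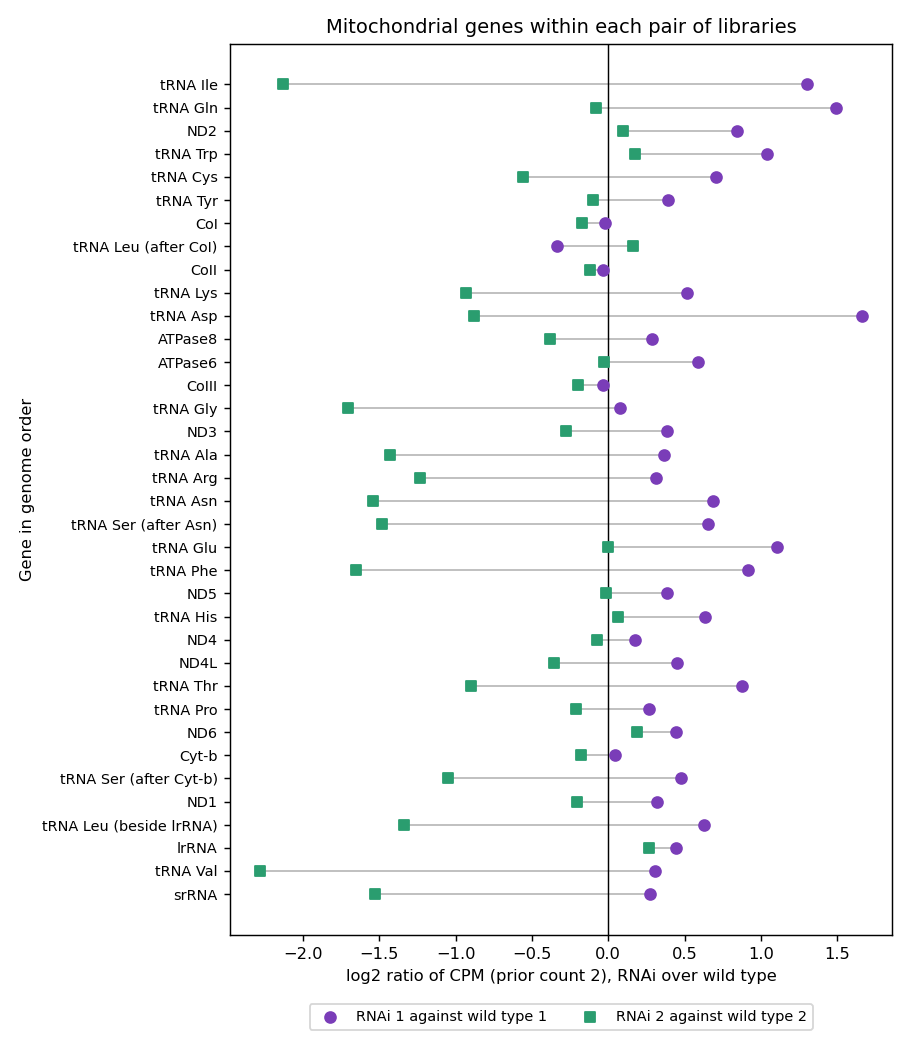
log2 ratio of CPM (prior count of 2), RNAi over wild type, for the 36 tested mitochondrial genes in genome order, with circles for RNAi 1 against wild type 1 and squares for RNAi 2 against wild type 2. Circles lie to the right of 0 for 32 genes and squares to the left for 29, and the mRNA genes lie closer to 0 than most tRNA genes.

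With the library pair as a term in the model, 0 of the 36 genes passed in edgeR, against 7.10% of all genes (3.45% higher and 3.65% lower). At an unadjusted p under 0.05 there were 3, mt:ND2, mt:tRNA:Trp-TCA and mt:tRNA:Gln-TTG, or 8.33%, against 17.7% of all genes. The log2 fold changes in that fit were 0.47 (SE 0.20, edgeR adjusted p = 0.178) for mt:ND2, 0.71 (SE 0.30, edgeR adjusted p = 0.180) for mt:tRNA:Trp-TCA, and 0.84 (SE 0.38, edgeR adjusted p = 0.242) for mt:tRNA:Gln-TTG. Since the pairing was read from these counts, and 1 residual degree of freedom remains, these p-values may understate the error.

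Reads on tRNA genes were few. The 22 genes had 0 to 337 counts per library, and their mean levels ran from 2.41 to 184 CPM per kb, below the lowest mRNA. A tRNA gene is 62 to 72 bases long, so a read assigned to it may belong to the mature tRNA or to a precursor that spans the gene, and the counts do not separate these. Levels of tRNA genes in this assay are therefore levels of reads over the gene. Among the library pairs, log2 CPM over the 21 tested tRNA genes correlated at 0.924 between wild type 1 and RNAi 1 and 0.920 between wild type 2 and RNAi 2, against 0.669 within wild type and 0.612 within RNAi. These correlations are across genes of the same genome and describe the libraries only.

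A run of 6 tRNA genes lies between mt:ND3 and mt:ND5. Its genes are mt:tRNA:Ala-TGC (5983 to 6047), mt:tRNA:Arg-TCG (6062 to 6124), mt:tRNA:Asn-GTT (6125 to 6190), mt:tRNA:Ser-GCT (6191 to 6258) and mt:tRNA:Glu-TTC (6259 to 6325) on the plus strand, and mt:tRNA:Phe-GAA (6344 to 6408) on the minus strand. They begin 22, 101, 164, 230, 298 and 383 bases from the end of mt:ND3. In the same order, wild type 1 had 215, 119, 81, 52, 31 and 21 counts, and RNAi 1 had 300, 160, 142, 90, 75 and 45 counts. Counts thus became fewer from gene to gene along the whole run in both libraries.

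In wild type 2 the same genes had 251, 44, 15, 8, 0 and 2 counts, and in RNAi 2 they had 204, 40, 10, 5, 0 and 0 counts. Here the counts dropped within the first 3 genes and reached 0 at mt:tRNA:Glu-TTC, which allows up to 0.269 CPM in wild type 2 and 0.122 CPM in RNAi 2 (3 counts per library), whereas wild type 1 and RNAi 1 had 1.07 and 2.40 CPM. The ratio of mt:tRNA:Ala-TGC to mt:tRNA:Ser-GCT counts was 4.13 and 3.33 in wild type 1 and RNAi 1, and 31.4 and 40.8 in wild type 2 and RNAi 2. The 2 genotypes overlapped in this ratio (exact permutation p = 1.0). Total counts were 30537063 and 30252763 in the first pair and 11294882 and 23674485 in the other. At mt:tRNA:Ala-TGC the first pair had 215 and 300 counts and the other 251 and 204. The part of depth in the difference between the pairs was not tested.

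**Figure D4:**
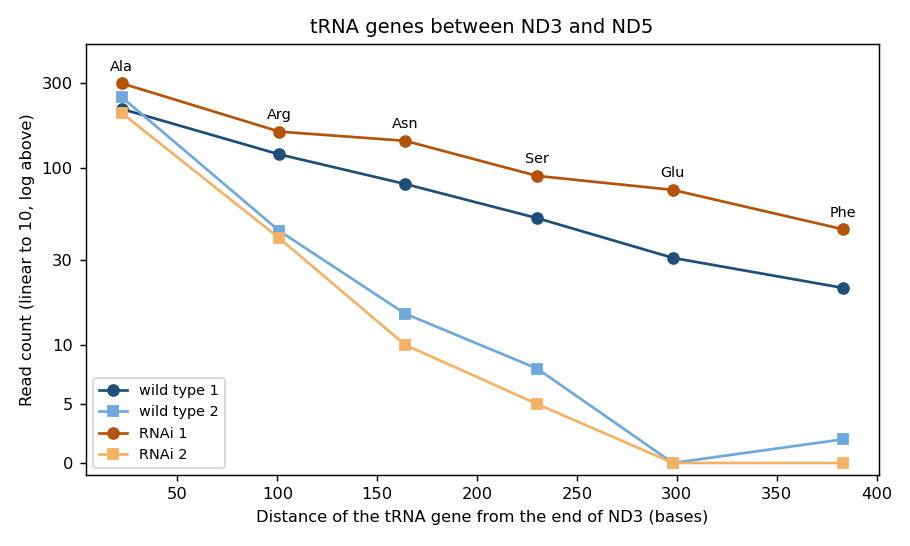
Read counts (linear to 10, log above) of the 6 tRNA genes between mt:ND3 and mt:ND5 against the distance of the gene from the end of mt:ND3 in bases, 1 line per library. Wild type 1 and RNAi 1 go from 215 and 300 counts to 21 and 45, while wild type 2 and RNAi 2 go from 251 and 204 counts to 2 and 0.

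Outside this run, mt:tRNA:Ser-TGA, after mt:Cyt-b, had 32 and 49 counts in wild type 1 and RNAi 1 against 1 and 0 in wild type 2 and RNAi 2. mt:tRNA:His-GTG, between mt:ND5 and mt:ND4, had 26 and 45 counts against 3 and 7. Both were lower in wild type 2 and RNAi 2, as at the far end of the run after mt:ND3.

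By contrast, mt:tRNA:Pro-TGG, beside mt:ND6 and on the strand opposite to it, had 95 and 57 counts in wild type and 124 and 108 in RNAi. mt:tRNA:Tyr-GTA, before mt:CoI, had 41 and 21 counts in wild type and 59 and 43 in RNAi. Their CPM differed between libraries by at most 1.56-fold and 1.33-fold.

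The tRNA genes around mt:ND2 were highest in RNAi 1, as mt:ND2 itself was. This was not particular to that place. Most tRNA genes elsewhere, such as mt:tRNA:Asp-GTC and mt:tRNA:Arg-TCG, were also highest in RNAi 1, though mt:tRNA:Ala-TGC, for one, was not. Over all 22 tRNA genes, 21 had a higher CPM in RNAi 1 than in wild type 1. mt:tRNA:Ile-GAT (1 to 65, plus strand) had 102 and 61 counts in wild type and 276 and 29 in RNAi, or 3.53, 5.48, 8.85 and 1.18 CPM in wild type 1 and 2 and RNAi 1 and 2. mt:tRNA:Gln-TTG (97 to 165, minus strand) had 51 and 26 counts in wild type and 160 and 54 in RNAi, with a log2 fold change of 0.86 (SE 0.53), or 0.12 without RNAi 1 and 1.30 without RNAi 2. RNAi 1 stood above the other 3 libraries in both.

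mt:tRNA:Trp-TCA (1264 to 1329, plus strand) had 107 and 26 counts in wild type and 240 and 65 in RNAi, a log2 fold change of 0.76 (SE 0.57). mt:tRNA:Cys-GCA (1322 to 1383, minus strand), which overlaps it by 8 bases on the other strand, had 190 and 70 counts in wild type and 337 and 104 in RNAi. Without strand information reads of that overlap cannot be assigned to either gene. mt:tRNA:Met-CAT, directly before mt:ND2, had 5 and 1 counts in wild type and 10 and 2 in RNAi and was not tested.

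The largest fold changes among tRNA genes rested on single libraries. mt:tRNA:Gly-TCC, between mt:CoIII and mt:ND3, had 28 and 57 counts in wild type and 32 and 37 in RNAi, or 0.969, 5.12, 1.03 and 1.51 CPM in wild type 1 and 2 and RNAi 1 and 2. Wild type 2 alone was high, and the log2 fold change of -1.21 (SE 0.77) was 0.40 without it. mt:tRNA:Glu-TTC, with a fitted log2 fold change of 0.98 (SE 1.62), had 0 counts in 1 library of each genotype. Its value was 7.74 without wild type 1, -6.79 without RNAi 1 and -0.34 in limma-voom.

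The remaining tRNA genes had low counts. mt:tRNA:Asp-GTC had 22 and 10 counts in wild type and 81 and 11 in RNAi, and mt:tRNA:Lys-CTT, its neighbour between mt:CoII and mt:ATPase8, had 31 and 13 against 49 and 14. mt:tRNA:Leu-TAA, between mt:CoI and mt:CoII, had 31 and 6 against 26 and 15, and mt:tRNA:Leu-TAG, beside mt:lrRNA, had 31 and 21 against 53 and 17. mt:tRNA:Thr-TGT had 11 and 11 against 24 and 12, and mt:tRNA:Val-TAC, which separates the rRNA genes, had 10 and 8 against 14 and 2. None of these separated the genotypes.

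The nuclear subunits of the same complexes did not follow the mitochondrial ones between library pairs. Of 65 nuclear genes of complexes I, III (with cytochrome c), IV and ATP synthase, 63 were tested, 0 were called, 1 had an unadjusted p under 0.05, and the median log2 fold change was -0.18, against 0.084 over the mitochondrial genes and 0.0065 over all genes. Of the 63, 34 (54.0%) were lower in RNAi within both pairs, where 30.9% of all genes were, and 1 was higher. The median of the nuclear genes was positive without wild type 1 (0.19) or without RNAi 2 (0.088). Of the 13 visceral muscle markers, 13 were lower in RNAi in both pairs (median log2 fold change -0.50), and their part in these values was not tested.

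The ratio of mitochondrial to nuclear subunit counts showed the pairs again. For complex I it was 0.552 and 1.22 in wild type 1 and 2 and 0.793 and 1.29 in RNAi 1 and 2, and for complex IV 2.60 and 4.18 against 2.72 and 4.22. For complex III it was 1.13 and 2.20 against 1.45 and 1.95. In these 3 complexes wild type 2 and RNAi 2 were above wild type 1 and RNAi 1, and the genotypes overlapped (exact permutation p from 0.667 to 1.0).

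ATP synthase did not show that order. Its ratio was 0.493 and 0.806 in wild type and 0.961 and 0.828 in RNAi. RNAi 1 was highest and the genotypes did not overlap (exact permutation p = 0.333, adjusted p = 0.988 over the 40 summed measures). Most of the 40 measures did overlap. Nuclear ATP synthase genes took 1.08% and 0.795% of counts in wild type and 0.903% and 0.792% in RNAi. mt:ATPase6 with mt:ATPase8 took 0.532% and 0.640% in wild type and 0.868% and 0.656% in RNAi. These mitochondrial genes also make up the ATP synthase share given above, so that share and this ratio are not independent.

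**Figure D5:**
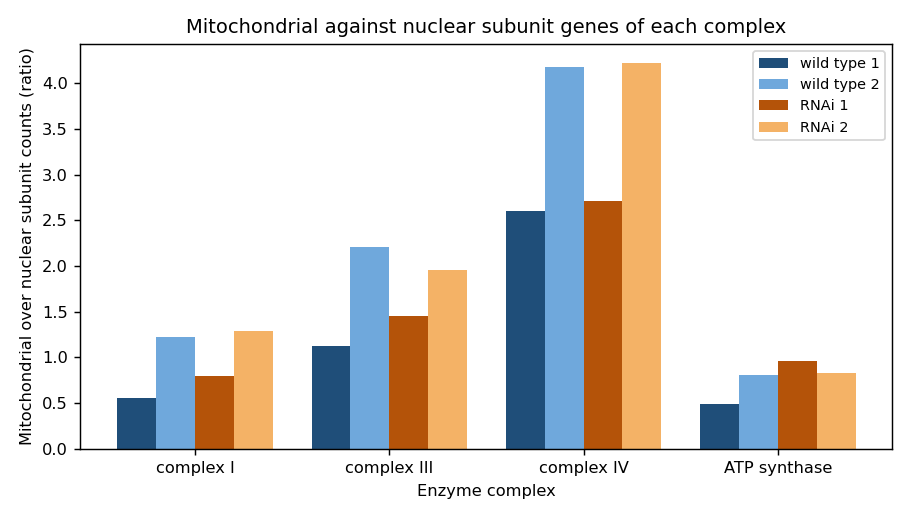
Ratio of summed counts of mitochondrial to nuclear subunit genes for each enzyme complex (linear axis from 0), 1 bar per library and so no error bar. In complexes I, III and IV wild type 2 and RNAi 2 are above wild type 1 and RNAi 1, and in ATP synthase RNAi 1 is highest at 0.961.

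Named by the smallest p in each list, nuclear genes of the complexes that differed most had lower values in RNAi in most cases. ND-51, the complex I subunit that oxidises NADH, had 464 and 350 CPM in wild type and 230 and 199 CPM in RNAi, a log2 fold change of -0.92 (SE 0.39, edgeR adjusted p = 1.0). The lower values held in both pairs. With the pair as a term ND-51 passed (edgeR adjusted p = 7.66e-04), as the only 1 of the 63 nuclear genes tested above. In that fit 7.10% of all genes passed. Since the pairs were read from these counts, p-values of that fit may understate the error. SdhA, the flavoprotein of complex II, which has no mitochondrially encoded subunit, had 260 and 284 CPM in wild type and 115.3 and 167 CPM in RNAi, with a log2 fold change of -0.95 (SE 0.40) and an adjusted p of 3.25e-04 with the pair as a term.

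The other genes named for these complexes did not pass in either fit. Their log2 fold changes were -0.45 for ND-SGDH, -0.39 for SdhB, -0.31 for UQCR-C1 and 0.45 for UQCR-11 of complex III, -0.52 for COX7A and -0.27 for COX6B of complex IV, and -0.40 for ATPsynB and -0.31 for ATPsynbeta of ATP synthase. COX7A had 592 and 406 CPM in wild type and 406 and 292 CPM in RNAi, so RNAi 1 lay just below wild type 2.

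The nuclear genes that copy, transcribe and process mitochondrial nucleic acids gave 0 calls in any list, with or without the pair as a term. Of 5 tested genes of mitochondrial DNA replication and packaging, the median log2 fold change was -0.21: the log2 fold change was -0.49 for mtDNA-helicase, which unwinds mitochondrial DNA (13.1 and 9.78 CPM in wild type, 7.88 and 8.48 CPM in RNAi), and 0.37 for PolG1, the catalytic subunit of its polymerase. Of 5 tested transcription genes, with a median of 0.011, PolrMT, the mitochondrial RNA polymerase, had 9.65 and 15.98 CPM in wild type and 9.17 and 20.8 CPM in RNAi, which again followed the pairs. mTerf3, of the transcription termination factor family, had a log2 fold change of -0.25.

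Of 9 tested genes of RNA processing and stability, 5 were higher and 1 lower in RNAi within both pairs, with a median of 0.18. Of all genes, 30.5% were higher and 30.9% lower in that way, and the difference of this short list from them was not tested. RNaseZ, which cuts the 3′ ends of tRNA precursors in nucleus and mitochondria, had 7.23 and 12.8 CPM in wild type and 10.3 and 13.2 CPM in RNAi, and Suv3, an RNA helicase, had 16.1 and 19.3 CPM against 16.7 and 24.4 CPM. Both overlapped between the genotypes. Of 6 nuclear regulators of mitochondria, with a median of -0.22, srl, the fly PGC-1 coactivator, had a log2 fold change of -0.37 (SE 0.37). It had 30.6 and 27.7 CPM in wild type and 21.6 and 23.6 CPM in RNAi, lower without overlap, as 12.2% of all genes were. The log2 fold change was -0.33 (SE 0.46) for park, the fly Parkin, and positive for the regulators ERR (0.21) and ewg (0.074).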

How the data were processed

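Total RNA was sequenced after standard Illumina library preparation, and the authors deposited whole-number read counts per gene, without normalization, for 4 libraries. FastQC, STAR and the build BDGP6 are listed in the submitters' processing notes. For tool versions, the counting tool, the strand setting and the annotation release, the entry is: not given in the sources used here. Of 17510 identifiers, 17404 matched a symbol. Gene positions and lengths came from an Ensembl annotation of BDGP6. No genome sequence was used.

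Counts were fitted in R 4.3.3 with edgeR 4.0.16 (filterByExpr, TMM, robust quasi-likelihood test, genotype as the term, 4 libraries), adjusted by Benjamini-Hochberg over 9637 genes, with calls at 0.05. The script was tested on simulated data. DESeq2 1.42.0, limma-voom (limma 3.58.1), other scalings and filters, each library left out and a library-pair term were alternatives. The pairs, wild type 1 and RNAi 1 against the other two libraries, came from the correlations of the counts, not from the labels or the numbering. They coincide with the order of deposit, in which wild type 1 and RNAi 1 come before the other libraries. CPM values are TMM-scaled counts, and levels per kilobase divide by annotated exon length. Summed measures used exact permutation tests (scipy 1.17.1). Named were all mitochondrial genes and, of each nuclear list, the 2 genes with the smallest p when fewer than 2 were called. Of the nuclear names 1 matched no identifier. The genes, lists and alternatives were chosen with earlier results of these data known.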

Additional observations from a re-analysis of the deposited data

How the results depend on the processing

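No mitochondrial gene was called under any of the alternatives run. With single libraries left out, the difference in the mitochondrial share of counts, 1.05 percentage points, ranged from 0.217 (without wild type 1) to 1.89 (without wild type 2), and that in the rRNA share of mitochondrial counts, 5.39, from 0.788 (without RNAi 2) to 9.98 (without RNAi 1). The number of all genes called, 12, was 1 with upper-quartile scaling, 1 with a minimum mean of 5 CPM, 120 with no count filter, 92 in DESeq2, 684 with the library pair as a block, and 58 to 120 with single libraries left out. The median log2 fold change of the nuclear respiratory genes, -0.18, was -0.075 with library size alone and -0.47 to 0.19 with single libraries left out. Fold changes were followed for the 15 mRNA and rRNA genes and for mt:tRNA:Gln-TTG, mt:tRNA:Trp-TCA, mt:tRNA:Gly-TCC and mt:tRNA:Glu-TTC. The other tRNA genes are not included, so the counts here are not rates over the 36 tested genes. Of the 19 fold changes followed, 13 changed sign when single libraries were left out. Their ranges were -0.56 to 0.50 for mt:ATPase8, -0.30 to 0.12 for mt:CoI, -0.23 to 0.027 for mt:CoII, -0.26 to 0.12 for mt:Cyt-b, -0.21 to 0.28 for mt:ND1, -0.25 to 0.31 for mt:ND3, -0.25 to 0.37 for mt:ND4, -0.76 to 1.01 for mt:ND4L, -0.17 to 0.56 for mt:ND5, -1.47 to 0.16 for mt:srRNA, -6.79 to 7.74 for mt:tRNA:Glu-TTC, -2.03 to 0.40 for mt:tRNA:Gly-TCC and -0.21 to 1.29 for mt:tRNA:Trp-TCA. The other 6 kept their sign, with 0.12 to 1.30 for mt:tRNA:Gln-TTG, 0.069 to 0.83 for mt:ND2, 0.12 to 0.47 for mt:ND6, 0.066 to 0.45 for mt:ATPase6, 0.037 to 0.71 for mt:lrRNA and -0.23 to -0.044 for mt:CoIII. An arm left with 1 library was assumed to vary like the other. Signs also changed with library size alone for mt:CoII (0.027) and mt:Cyt-b (0.017), in limma-voom for mt:tRNA:Glu-TTC (-0.34) and mt:ND4L (0.045), with the pair as a block for mt:ND4L (0.046), and with the mitochondrial total for mt:ND3 (-0.081), mt:ND1 (-0.090) and mt:ND4 (-0.12). The cause was not tested. Of the tRNA genes, 7 had 10 or fewer counts in both wild type 2 and RNAi 2, so their values there carry wide counting error. The block used pairs read from the counts, since the labels give no replicate numbers.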
